A study of Equus asinus with 3 samples.

Results

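Fibroblast barcodes of the donkey corpus epididymidis are described here, from droplet single-cell RNA sequencing. A barcode stands for 1 droplet, and its RNA molecules are counted by unique molecular identifiers (UMIs). A corpus barcode was counted as a fibroblast when UMIs of 5 genes took 2% or more of all its UMIs. These genes were DCN (decorin, a proteoglycan that binds collagen fibrils), COL1A1 and COL1A2 (the chains of type I collagen), COL3A1 (type III collagen) and APOD (apolipoprotein D, a secreted lipid carrier). The rule was met by 3061 of 9611 corpus barcodes, 31.8% (exact 95% Clopper-Pearson interval 30.9 to 32.8%), out of 27699 barcodes in the whole series. The barcodes were chosen by their measured UMIs of these 5 genes, so every contrast of these barcodes with the rest of the corpus library is a description and carries no test.

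Fibroblasts make and maintain the connective tissue matrix. In the epididymis they lie in the stroma around the coiled duct, among smooth muscle, vessels, nerves and immune cells, while the duct epithelium secretes the proteins in which sperm mature. Besides fibrillar collagen, fibroblasts of many organs secrete growth factors, binding proteins that hold such factors back, protease inhibitors and complement proteins.

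The study took testis and epididymis from 3 sexually mature male donkeys to examine how sperm are made and mature. There was 1 library each of testis (labelled germ cells), caput epididymidis and corpus epididymidis (both labelled somatic cells), with no breed, age in years, treatment or sort named and no link given between animals and libraries. Tissue of all 3 libraries was kept in storage solution within 48 h and digested with collagenase IV and DNase I for 15 min at 37 C. With 1 library per region there is no replicate, and region, animal and library cannot be told apart.

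Depth differed strongly between libraries. The lowest and the median UMIs per barcode were 298 and 371 in corpus, 843 and 1145 in caput, and 1816 and 4714 in testis. Corpus fibroblast barcodes held 1408068 UMIs in all, with a median of 402 UMIs (298 to 2343) and 330 genes per barcode. The other 6550 corpus barcodes had a median of 361 UMIs. Levels are given as CPM, UMIs scaled to a total of 1e+06 per summed group, and 1 UMI in the summed fibroblast barcodes equals 0.710 CPM. All intervals are exact, at 95%, and cover counting error only, not differences between animals or libraries. Those of levels and ratios treat UMIs as independent and leave out spread between barcodes. Cell names are serial numbers within each library, so barcodes shared between libraries could not be counted. No doublet caller was run.

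The 5 genes together took a median of 6.53% of the UMIs of a fibroblast barcode (5th to 95th percentile 2.70 to 12.5%, maximum 20.7%). In the pooled other corpus barcodes they took 0.185%. Few barcodes lay at the threshold, with 106 at 1.5 to 2% and 107 at 2 to 2.5%. UMIs of all 5 genes were found in 1145 fibroblast barcodes (37.4%), of 4 genes in 962, of 3 in 680, of 2 in 268 and of 1 in 6. DCN was the leading gene without a tie in 2568 barcodes (83.9%) and APOD in 340 (11.1%), while a collagen rarely led (COL3A1 in 19, COL1A2 in 17 and COL1A1 in 7).

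**Figure D1:**
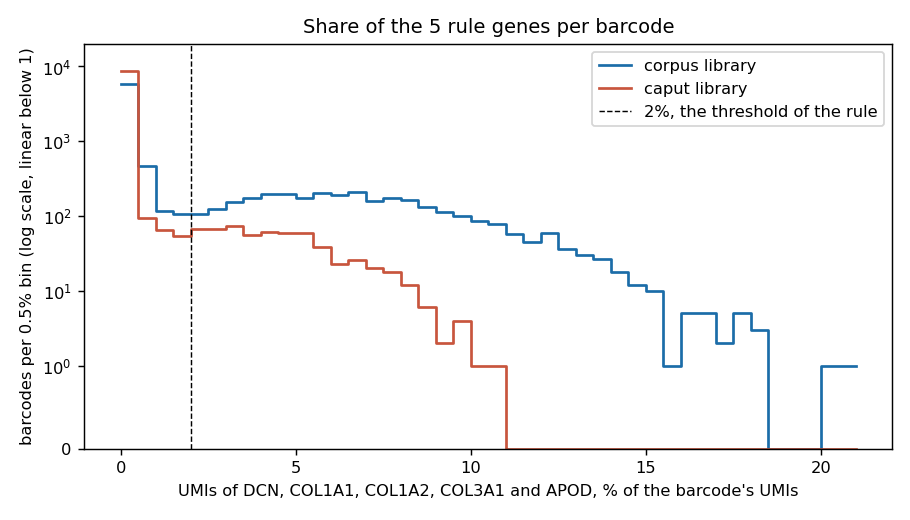
Number of barcodes (vertical axis, logarithmic above 1) by the percentage of a barcode's UMIs that come from the 5 genes of the rule (horizontal axis, bins of 0.5%), for each library. Corpus barcodes reach 20.7%, and 106 and 107 corpus barcodes fall just below and just above the 2% threshold.

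DCN stood at 38925 CPM in fibroblast barcodes and 944 CPM in the other corpus barcodes, a ratio of 41.2. APOD stood at 17657 against 533 CPM (33.1), COL1A2 at 5754 against 162 (35.5), COL3A1 at 3878 against 109 (35.6) and COL1A1 at 3368 against 106 (31.8). These values restate the rule. A low level of the same genes was present in barcodes of unrelated types: DCN was at 617 CPM in 334 barcodes with at least 1% macrophage marker UMIs, at 679 CPM in 51 with as many T or NK cell marker UMIs and at 414 CPM in 149 with luminal epithelial marker UMIs. These classes leave out barcodes that met the rule, so the rule itself bounds DCN in them. Within that limit, this is the level at which DCN was seen in cells that should lack it. The 1% threshold of these comparison classes was chosen after seeing the data, since no barcode reached the planned 3% for T or NK cells.

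The label was checked on defining fibroblast genes outside the rule. FBLN1 (fibulin 1, a matrix glycoprotein) stood at 2270 CPM in fibroblast barcodes and 106 CPM in the others. SPARC (a collagen-binding matricellular protein) stood at 1402 against 65.5 CPM, THY1 (a surface glycoprotein of many fibroblasts) at 327 against 29.99 CPM, MFAP5 (a microfibril protein) at 308 against 18.7 CPM and BGN (biglycan) at 208 against 9.51 CPM. The receptor genes PDGFRA and PDGFRB, whose products bind platelet-derived growth factors, were sparser, at 146 against 27.8 CPM and 66.0 against 7.31 CPM. LUM (lumican) had 93 UMIs, 66.0 against 4.75 CPM, and 0 UMIs in the macrophage and in the luminal classes. All 8 of these genes were thus higher in the barcodes that met the rule, in the direction of the label.

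**Figure D2:**
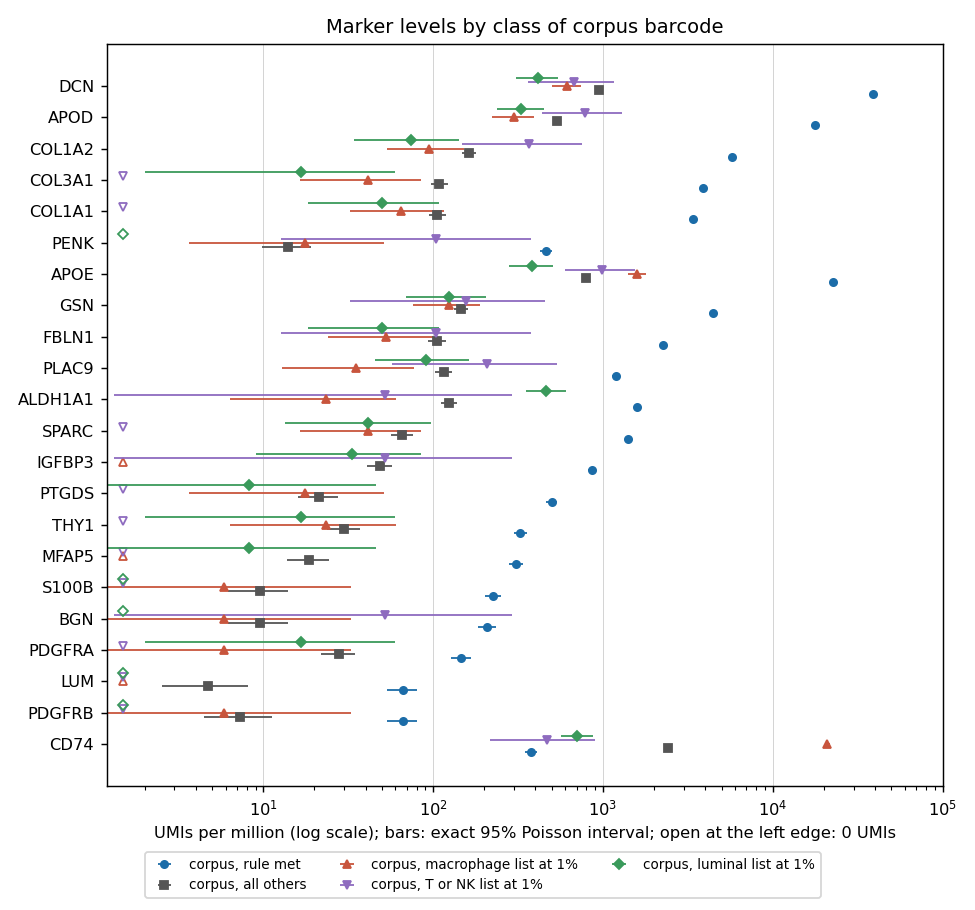
CPM (horizontal axis, logarithmic) of 22 genes in 5 classes of corpus barcodes, with exact 95% Poisson intervals as bars; open symbols at the left edge mark 0 UMIs. DCN lies at 38925 CPM in fibroblast barcodes and at 414 to 679 CPM in the macrophage, T or NK and luminal classes, and CD74 lies at 377 CPM in fibroblast barcodes and 21003 CPM in the macrophage class.

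A gene counted as higher or lower if its ratio exceeded 2-fold over the full width of the interval, with 50 or more UMIs on the side where it was higher. Outside the 5 genes of the rule, 858 of 11099 genes (7.73%) were higher and 266 (2.4%) were lower in fibroblast barcodes than in the other corpus barcodes. Because the same contrast chose the barcodes, these background shares are given for scale alone. The median log2 ratio over all genes was -0.52. Very long genes took 2.17% of UMIs in the other barcodes and 1.18% in fibroblast barcodes, and ribosomal protein genes took 2.84% and 4.20%. The part of these differences in the counts was not tested. The size of a ratio depends on which barcodes make up the other side: with DCN left out of the rule, the ratios of the named genes farthest above 1 lay between 6.61 (PENK) and 9.88 (PTGDS).

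Matrix genes formed the broadest block. Of the small leucine-rich proteoglycans other than DCN, 7 of 8 tested were higher and 0 lower, with a median log2 ratio of 3.50. They included OGN (osteoglycin, 696 against 42.4 CPM, 16.4-fold, 13.5 to 20.1), BGN (21.9-fold) and OMD (osteomodulin, 23.3-fold). Elastic fibre and microfibril genes were higher in 11 of 14, with a median of 2.91. MGP, an inhibitor of calcification that binds elastic fibres, stood at 3699 against 167 CPM (22.1-fold, 20.1 to 24.4), and LTBP4, which tethers latent TGF-beta to microfibrils, at 491 against 21.2 CPM (23.1-fold). Adhesive and matricellular genes were higher in 16 of 20, with a median of 2.49. Among them FN1 (fibronectin) had a ratio of 7.5 and CCN1, a matricellular protein that binds integrins, one of 20.9.

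Collagen genes outside the rule were less uniform. Of the fibrillar collagens, 2 of 3 tested were higher (median log2 1.38), among them COL5A2, which sets fibril diameter as part of type V collagen (447 against 104 CPM, 4.29-fold, 3.72 to 4.95). Of the network and other collagens, 6 of 14 were higher, with a median of 0.30. These were COL6A1 (783 against 27.4 CPM, 28.6-fold), COL6A2 and COL6A3, chains of microfibrillar collagen, COL14A1 and COL16A1, of fibril-associated collagens, and COL15A1. COL4A1 and COL4A2, the common chains of basement membrane collagen, passed in neither direction (84.5 against 68.8 CPM and 61.8 against 79.7 CPM). Of the genes that process collagen, 9 of 13 were higher (median 1.68), including PCOLCE, which speeds removal of the procollagen C-propeptide (20.4-fold), and LOX, the enzyme that starts collagen cross-linking (12.8-fold). Of the matrix proteases and their inhibitors, 13 of 17 were higher (median 3.14). TIMP3, a matrix-bound inhibitor of metalloproteases, stood at 2285 against 140 CPM (16.3-fold), and SERPINF1, a secreted serpin, at 675 against 30.7 CPM (22.0-fold).

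Genes of fibroblast identity were higher in 13 of 17, with a median log2 of 2.88. GSN (gelsolin, which severs actin filaments) stood at 4423 against 146 CPM, a ratio of 30.2 (27.3 to 33.5), which lay between 7.53 and 39.9 over the alternatives. The transcription factors TCF21, PRRX1 and OSR1, all known from connective tissue cells, had ratios of 24.7, 9.39 and 21.4. Among patterning factors, 2 of 7 were higher, HOXA9 (92.3 against 5.12 CPM, 18.0-fold) and GATA2 (9.30-fold). GATA2 also marks mast cells, and it was the gene of the mast cell list that could be tested.

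Among secreted signals, 9 of 24 growth factor ligands were higher (median log2 1.08). IGF1 and IGF2, the insulin-like growth factors, stood at 996 against 110 CPM (9.05-fold) and 514 against 36.9 CPM (13.9-fold). WNT2B and WNT5A, ligands of the Wnt pathway, had ratios of 12.3 and 6.14, RSPO3, which amplifies Wnt signals, one of 3.65, and TGFB2 one of 4.59. Genes that bind or block signals were higher in 11 of 14, with a median of 2.62. IGFBP6, which binds IGF2 with preference, stood at 2201 against 81.9 CPM (26.9-fold, 23.5 to 30.9). The other binding proteins IGFBP4 and IGFBP3 had ratios of 26.8 and 17.7. SFRP1, a secreted Wnt antagonist, and FSTL1, a secreted follistatin-like protein, had ratios of 14.4 and 15.3.

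Of 19 growth factor receptor genes tested, 6 were higher (FGFR1, FZD1, PTCH1, AXL, IL6ST and TGFBR3, with ratios from 2.83 to 12.2), 0 were lower and the list median was -0.07. In the steroid and retinoid list 7 of 22 were higher, with a median of 0.09. ALDH1A1, an enzyme that makes retinoic acid, stood at 1580 against 124 CPM (12.8-fold, 11.4 to 14.4). Within the others it stood at 464 CPM in the luminal class and 23.5 CPM in the macrophage class. RARRES2 (chemerin) had a ratio of 20.9, and the nuclear receptors NR2F1 and NR2F2 had ratios of 9.05 and 10.7. The oestrogen receptor ESR1, at 91.6 against 173 CPM (0.53-fold, 0.43 to 0.64), did not pass the rule.

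In the complement list 7 of 16 genes were higher and 5 lower. Higher were C1R (1971 against 85.6 CPM, 23.0-fold) and C1S, the proteases of the first complement component, with C4A, C7, CFD, CFI and SERPING1, the C1 inhibitor. Lower were C1QA (22.7 against 108 CPM), C1QB and C1QC, the recognition chains that macrophages make, with C6 and CFP. Complement protease and recognition genes thus lay on opposite sides. Of 9 chemokine and cytokine genes, 3 were higher: CXCL12 (1207 against 48.3 CPM, 25.01-fold, 20.9 to 30.1), CX3CL1 and CSF1, the macrophage growth factor. CXCL8, a neutrophil attractant, was lower (0.12-fold).

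In the lipid list 5 of 14 genes were higher and 1 lower. APOE, a lipid transport protein, stood at 22772 CPM in fibroblast barcodes, 797 CPM in the others and 1586 CPM in the macrophage class, a ratio to the others of 28.6 (27.4 to 29.8), which lay between 7.91, without DCN in the rule, and 36.2 over the alternatives. It was found in 97.6% of fibroblast barcodes. PTGDS, a prostaglandin D synthase and lipid carrier, had 704 UMIs, 499.98 against 21.2 CPM (23.6-fold). Redox genes were higher in 7 of 13, led in UMIs by SELENOP, a secreted selenium carrier (1974 against 144 CPM, 13.7-fold). Of 27 immediate early and stress genes, 4 were higher, JUN, JUNB, JUND and EGR1, with ratios from 2.40 to 3.64. FOS, at 1715 against 1021 CPM (1.68-fold), was not among them. JUN stood at 1125 CPM in fibroblast barcodes, and at 2103, 1254 and 530 CPM in the macrophage, T or NK and luminal classes. FOS stood at 4571, 3815 and 497 CPM in the same 3 classes. Both genes were thus higher in the macrophage and T or NK classes than in fibroblast barcodes.

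**Figure D3:**
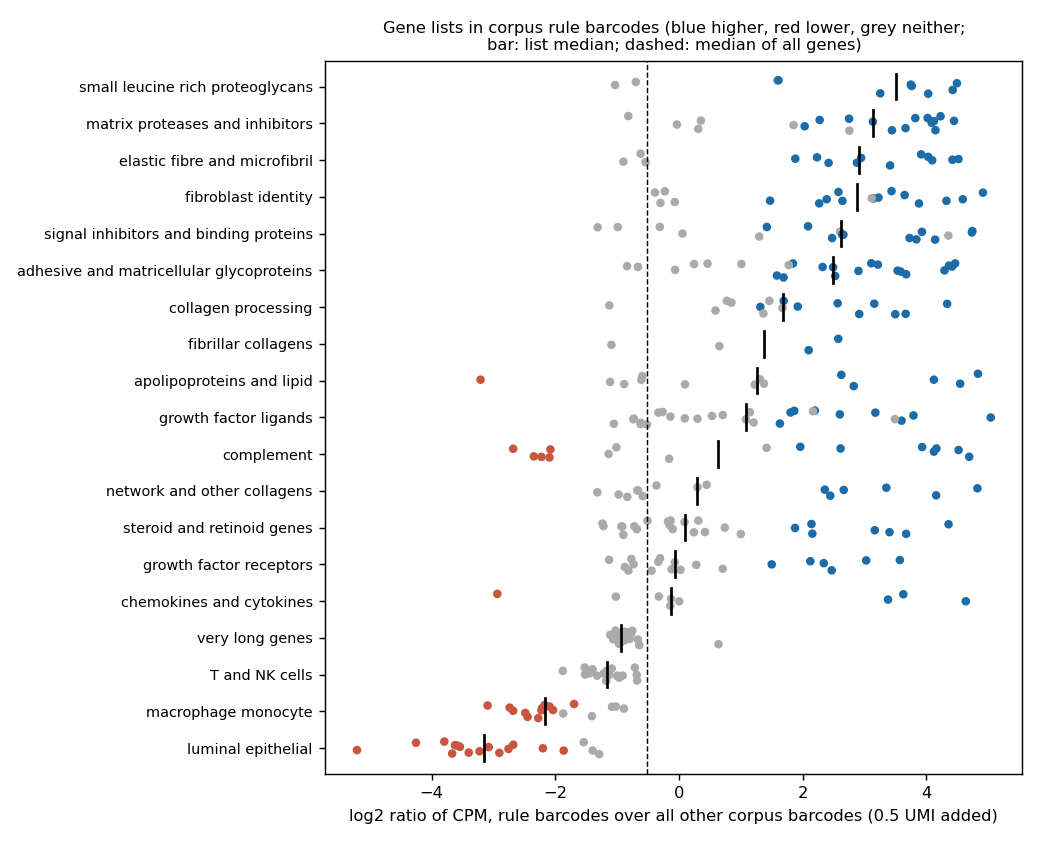
Log2 ratio of CPM between fibroblast and all other corpus barcodes (horizontal axis, 0.5 UMI added) for the genes of 19 lists (rows); each point is a gene with at least 50 UMIs over both sides, blue points were counted as higher and red points as lower, vertical bars mark list medians and the dashed line marks the median of all genes at -0.52. The proteoglycan list lies farthest to the right, at a median of 3.50, and the luminal epithelial list farthest to the left, at -3.15.

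Markers of macrophages and of luminal epithelium were low. Of 17 T and NK cell genes tested, 0 passed in either direction (median log2 -1.16). In the macrophage and monocyte list, 0 of 17 genes were higher and 12 lower (median log2 -2.17), and the list took 0.0455% of UMIs in fibroblast barcodes and 0.185% in the others. In the luminal epithelial list 0 of 17 were higher and 15 lower (median -3.15). The 8 genes farthest below 1 were all luminal secretory genes. LTF (lactotransferrin) stood at 29.1 against 374 CPM and at 7906 CPM in the luminal class, and BSPH1 (a sperm-binding protein) at 18.5, 261 and 5345 CPM. PATE1, SPINT4, DEFB115, DEFB129, DEFB135 and DEFB136 had ratios from 0.018 to 0.097, of which that of DEFB115 rests on 1 UMI (0.000455 to 0.103). Beta-defensin genes are close relatives, and the sources used here do not say how reads shared between them were assigned. Without the barcodes that carry another type's list at 3% or more, these 8 ratios lay between 0.064 (DEFB115) and 0.76 (DEFB129).

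Contractile, mural and nerve genes gave mixed values. List medians were 1.36 for smooth muscle, 0.56 for pericyte and 0.97 for Schwann cell and nerve genes, above the -0.52 of all genes. The endothelial list had a median of -0.73. Of 8 smooth muscle genes tested, 3 were higher, TAGLN (95.2 against 8.41 CPM, 11.3-fold), MYL9 and TPM2, all of the contractile apparatus. ACTA2 (smooth muscle actin, 54.7 against 21.2 CPM) and MYH11 (smooth muscle myosin, 32.0 against 51.2 CPM) passed in neither direction. In 11 fibroblast barcodes the list took 1% or more of UMIs. KCNJ8 was the pericyte gene that passed (9.43-fold), while RGS5, a defining pericyte gene, did not (59.7 against 34.4 CPM). RAMP2 was the endothelial gene that passed (5.23-fold), while PECAM1 and VWF, which define endothelium, stood at 26.3 against 59.2 CPM and 29.8 against 51.9 CPM. S100B, a calcium-binding protein best known from glial cells, stood at 226 against 9.51 CPM (23.8-fold, 15.9 to 36.9) and was found in 287 fibroblast barcodes. The Schwann cell genes NCAM1 and CDH19 did not pass, and SOX10, which defines that lineage, had 1 UMI.

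RNA of antigen-presenting cells sat in a few barcodes. CD74, the invariant chain of MHC class II, and LYZ (lysozyme) together took 1% or more of UMIs in 29 fibroblast barcodes (0.947%), while 2861 (93.5%) had 0 UMIs of both. The 29 barcodes had a median of 736 UMIs, against 401 in the other 3032. CD74 stood at 16134 CPM in them and 136 CPM in the rest, RGS1, a regulator of G-protein signalling known from immune cells, at 3916 against 136 CPM, and DCN at 21843 against 39186 CPM. Outside CD74 and LYZ, 10 of 3873 genes (0.258%) were higher and 3 (0.0775%) lower in them. This split was chosen after seeing the data, and whether these barcodes hold more than 1 cell was not tested. Macrophage markers took 1% or more in 17 fibroblast barcodes, T or NK markers in 3 and luminal markers in 8, and none of these lists reached 3% in any.

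To examine whether other fibroblast genes followed the share of the 5 genes, barcodes were ordered by that share. APOE stood at 545 CPM below 0.5%, at 7767 CPM at 1.5 to 2%, at 10015 CPM at 2 to 2.5%, at 22370 CPM at 4 to 8% and at 29847 CPM at 12% or more. SPARC stood at 56.1 CPM below 0.5%, 319 CPM at 1.5 to 2%, 288 CPM at 2 to 2.5%, 1260 CPM at 4 to 8% and 3218 CPM at 12% or more. Both genes were thus graded along the share below and above the threshold. CD74 had the opposite order above it, from 1789 CPM at 2 to 2.5% to 106 CPM at 12% or more, and very long genes took 1.67% and 0.675% of UMIs in those bins. FOS varied little above the threshold, between 1602 and 1830 CPM.

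PENK, which encodes proenkephalin, the precursor of enkephalin peptides, is a marker of the label outside the rule. It had 653 UMIs in fibroblast barcodes and 38 in the other corpus barcodes, 464 against 13.9 CPM, a ratio of 33.4 (24.1 to 47.6). Over the alternatives that ratio lay between 6.61, without DCN in the rule, and 48.2. Fibroblast barcodes held 94.5% of the PENK UMIs of the library. PENK was found in 389 fibroblast barcodes, 12.7% (11.5 to 13.9%), and in 38 others (0.580%). It was found in 3 of 334 macrophage barcodes (0.898%, median depth 447 UMIs) and 2 of 51 T or NK barcodes, and in 0 of 149 luminal barcodes, where 3 UMIs would be 24.9 CPM. After thinning each barcode to 300 UMIs, the shares were 9.46% in fibroblast barcodes and 0.433% in the others.

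PENK was unevenly spread among fibroblast barcodes. At the depths of these barcodes an even spread would place a PENK UMI in 19.0% of them, against the 12.7% found, and the highest barcode had 11. The ratio of the variance to its Poisson value was 2.27, where the median over 964 genes with at least 200 UMIs was 1.10 and 28 genes exceeded 1.5. CD74 had the highest ratio (5.75), followed by DCN (4.58), APOE (4.46) and APOD (4.38), and GSN (2.13), FOS (1.79), IGFBP3 (1.63) and SPARC (1.56) were also above 1.5. PENK was found in 1.89% of barcodes at 1.5 to 2% (2 barcodes), 8.41% at 2 to 2.5% (9 barcodes) of five-gene share, 11.5% at 4 to 8% and 15.3% at 12% or more.

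Few genes passed the rule between the 389 PENK-bearing fibroblast barcodes and the other 2672. The PENK-bearing side held 201699 UMIs against 1206369, and genes with fewer than 50 UMIs on it could not pass as higher. Of 3374 genes, 0 were higher (0%) and 1 was lower (0.0296%), C1QTNF3, a secreted C1q-like protein, with 0 against 50 UMIs, at least 2.79-fold lower against a floor of 3 UMIs in the group. The 5 genes closest to PENK by the lower bound of their ratio were LYZ (2.63), SSR4 (2.23), FXYD6 (2.49), BTG2 (2.16) and SMC4 (2.69), each with 18 to 41 UMIs in PENK-bearing barcodes. LYZ had 95 UMIs in 39 of all fibroblast barcodes, with up to 11 in 1 barcode. The 29 barcodes with CD74 and LYZ at 1% or more were not left out of this split. IGFBP6 had a ratio of 1.34 (1.22 to 1.46), PLAC9 of 1.346, ALDH1A1 of 1.29, DCN of 1.10 and APOE of 1.01. PENK-bearing barcodes were somewhat deeper, with a median of 446 against 398 UMIs.

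Further splits among the fibroblast barcodes used genes with spread of their own. They are descriptions, since measured values define their sides, and all but the collagen and PENK splits were chosen after seeing the data. UMIs of the 3 collagens outnumbered those of DCN and APOD in 156 barcodes. Against the other 2905, 2 of 3218 genes were higher (0.0622%) and 2 lower (0.0622%). SPARC stood at 3414 against 1297 CPM (2.63-fold, 2.29 to 3.02), and PI15, a secreted peptidase inhibitor, at 976 against 341 CPM (2.86-fold). IGFBP3 stood at 186 against 897 CPM (0.21-fold) and JAZF1, a zinc finger gene, at 1 against 235 UMIs (0.082-fold, 0.0021 to 0.46). ACTA2 (21 UMIs, 7.20-fold, 4.14 to 12.1) and TAGLN (24 UMIs, 4.19-fold, 2.58 to 6.56) had too few UMIs for the rule.

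Barcodes with at least 2 UMIs of PLAC9, which encodes a small secreted protein, were set against those with 0 (372 and 1986 barcodes). Of 2612 genes, 0 were higher (0%) and 2 lower (0.0766%). Genes with fewer than 50 UMIs on the PLAC9 side could not pass as higher. Several matrix genes had ratios between 1.5 and 2: COL3A1 1.89 (1.77 to 2.02), MFAP5 1.88, PCOLCE2, an enhancer of procollagen cleavage, 1.87, FSTL1 1.82, LOX 1.77, FN1 1.68, FBN1 (fibrillin 1) 1.62 and COL1A1 1.60. IGFBP3 had a ratio of 0.58 (0.48 to 0.71). The side with PLAC9 was deeper (median 508.5 against 384 UMIs) and had a larger five-gene share (8.68 against 6.33%), and their part in these ratios was not tested.

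Barcodes with at least 2 UMIs of IGFBP3 were set against those with 0 (267 and 2259 barcodes). Of 2670 genes, 0 were higher (0%) and 3 lower (0.112%), one of which was CCN2, a matricellular protein, with 1 against 96 UMIs (0.077-fold, 0.0019 to 0.43). COL3A1 had a ratio of 0.43 (0.38 to 0.49), MFAP5 of 0.45 (0.27 to 0.69), LOX of 0.51, COL1A1 of 0.58, COL1A2 of 0.67, FSTL1 of 0.57 and FN1 of 0.57. On the other side of 1 lay NR2F1 (1.96, 1.36 to 2.78), S100B (1.93, 1.40 to 2.61), CFD (1.68), SFRP1 (1.46) and APOD (1.34). DCN had a ratio of 1.02 (0.99 to 1.05), and the five-gene share was 6.94% on the IGFBP3 side and 6.93% on the other. Since the sum of the 5 genes was alike on both sides, the ratios of DCN, APOD and the collagens are not independent of each other. Between the 348 barcodes with more APOD than DCN and the other 2713, 0 of 3065 genes were higher (0%) and 1 lower (0.0326%), TMEM70, a mitochondrial assembly factor (0 against 78 UMIs, at least 3.09-fold lower). MFAP5 had a ratio of 0.43, IGFBP3 of 1.55 and PENK of 0.46 (0.32 to 0.65) in that split, and none of the 3 passed the rule.

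**Figure D4:**
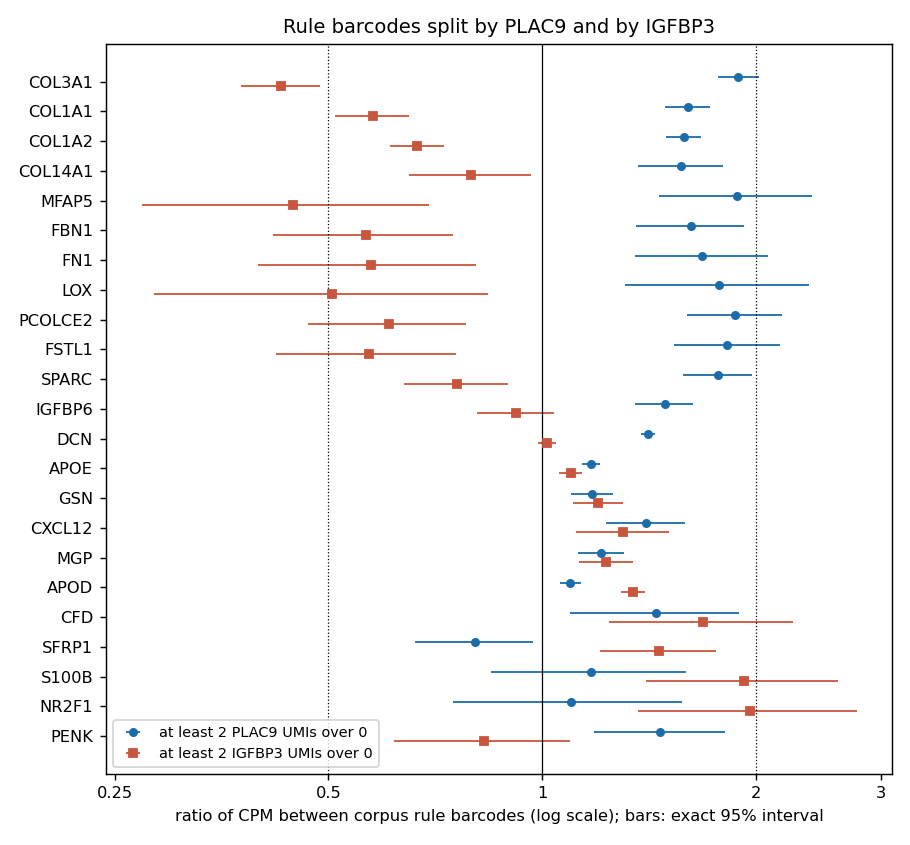
Ratio of CPM (horizontal axis, logarithmic, exact 95% intervals as bars, dotted lines at 2-fold) of 23 genes between fibroblast barcodes with at least 2 UMIs and with 0 UMIs of PLAC9 (circles) or of IGFBP3 (squares). COL3A1 lies at 1.89 in the PLAC9 split and 0.43 in the IGFBP3 split, while DCN stays near 1 in the IGFBP3 split, at 1.02.

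The split by FOS, an immediate early transcription factor, gave the most genes among the fibroblast barcodes. Between 273 barcodes with at least 3 FOS UMIs and 1798 with 0, 18 of 2387 genes were higher (0.754%) and 1 lower (0.0419%). They included EGR1 (5.40-fold), ATF3 (5.33), ZFP36 (4.81), HSPA6 (4.76) and JUN (2.499), all transcription or stress response genes, but also RGS1 (9.90) and CD74 (8.17). The FOS side was deeper (median 534 against 385 UMIs) and had more ribosomal protein UMIs (6.01 against 3.53%). Without the 29 barcodes with CD74 and LYZ, 13 of 2308 genes were higher (0.563%) and 3 lower (0.13%). EGR1 then stood at 5.59-fold, HSPA6 at 5.09, ATF3 at 4.69, JUN at 2.55, RGS1 at 6.39 and CD74 at 2.36.

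To see how fibroblasts of the corpus differ from those of the caput, the same rule was applied to the caput library. It was met by 597 of 9478 caput barcodes, 6.30% (5.82 to 6.81%), with a median of 1255 UMIs and 884895 UMIs in all. The lowest depth differed between the libraries, so no direction is read from the shares. In caput, 627 of 16493 genes (3.8%) were higher and 322 (1.95%) lower in rule barcodes than in the rest of the library. Of the higher genes, 479 were among the 858 of the corpus, 76.4% of the caput list and 55.8% of the corpus list.

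Few genes passed the rule between both sets of fibroblast barcodes. Of 5695 genes, 16 were higher in corpus (0.281%) and 110 higher in caput (1.93%), and the median log2 ratio was -0.02. GSN had a ratio of corpus to caput of 0.95 (0.92 to 0.99), FBLN1 of 0.94, SPARC of 0.94, TIMP3 of 1.04, S100B of 1.11 and SELENOP of 0.99. PTGDS had a ratio of 0.999. In caput it stood at 501 CPM in fibroblast barcodes and 630 CPM in the rest of that library. The genes of the rule chose the barcodes, so their values are not independent of it. Together they took 6.96% of UMIs in corpus and 4.45% in caput fibroblast barcodes. APOD had a ratio of 2.30 and DCN of 2.01, while the collagens lay below 1, COL1A2 at 0.81, COL3A1 at 0.70 and COL1A1 at 0.69.

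PENK and APOE were the genes of the 16 that also stood at least 2-fold above the rest of the corpus library. PENK stood at 464 CPM in corpus and 114 CPM in caput fibroblast barcodes, a ratio of 4.06 (3.29 to 5.06). It was found in 48 caput barcodes (8.04%), and after thinning to 300 UMIs the shares were 9.46% in corpus and 2.41% in caput. PENK stood at 13.9 and 2.60 CPM in the other barcodes of corpus and caput. APOE stood at 22772 against 9940 CPM, a ratio of 2.29 (2.24 to 2.35), and at 797 and 169 CPM in the other barcodes. For both genes the surrounding barcodes were also higher in corpus, and the part of free RNA in the ratios was not tested. CXCL12 (1.63, 1.49 to 1.78), IGFBP4 (1.63), CCDC80, a matrix protein (1.72), and MFAP5 (2.27, 1.85 to 2.80) were higher in corpus without passing. Lower in corpus without passing were SFRP1 (0.48, 0.44 to 0.52), PDGFRA (0.48), PDGFRB (0.51), OGN (0.67), COL14A1 (0.67) and COL5A2 (0.66).

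Most other named genes higher in corpus were immediate early or stress genes. Of 24 tested in that list, 6 were higher in corpus and 0 in caput, with a list median of 0.64. ATF3 stood at 158 against 19.2 CPM (8.21-fold, 5.01 to 14.3), FOS at 1715 against 634 CPM (2.71-fold), and IER2 had a ratio of 3.65, BTG2, an antiproliferative gene, of 3.59, ZFP36 of 3.01 and PPP1R15A of 2.67. JUN, from the same list, had a ratio of 1.001 (0.92 to 1.09). HSPA6, a stress-induced chaperone outside the list, stood at 234 against 54.2 CPM (4.31-fold). At a 4% threshold of the rule, ATF3 had a ratio of 24.2, HSPA6 of 8.70 and BTG2 of 5.90, and at 1% ATF3 had one of 5.20. In the other corpus barcodes ATF3 stood at 194 CPM and HSPA6 at 577 CPM, above their fibroblast levels, and 9 of the 16 genes were at least as high there. CD52, a luminal secretory gene, stood at 114 against 10.2 CPM, and at 775 CPM in the other corpus barcodes. Library, depth and region cannot be told apart for these genes.

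Of the 110 genes higher in caput fibroblast barcodes, 90 were at least as high in the other caput barcodes. The 12 named genes with intervals farthest from 1 were all lower in the fibroblast barcodes than in the rest of the caput library, and most are secretory genes of the caput epithelium. DEFB119 had 4 UMIs in corpus fibroblast barcodes and stood at 2357 CPM in caput fibroblast barcodes, with 14042 CPM in the luminal class of caput. BSPH1 stood at 18.5 against 2417 CPM, EDDM13 at 6.39 against 731 CPM and MUC15 at 4.97 against 382 CPM. LCN10 had 0 against 90 UMIs, at least 47.7-fold lower in corpus, and TNP1, a sperm nuclear protein, 0 against 66 UMIs, at least 35.0-fold lower (floor of 3 UMIs in the group). RNASE10, LCN6, CST11, CDO1, CLPSL2 and DEFB113 were the others. The luminal list took 0.573% of the UMIs of caput fibroblast barcodes and 0.0330% of those of corpus, and the sperm and spermatid list 0.0475% and 0.00589%.

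Another set of genes higher in caput stood above the rest of their own library. After seeing the data, the 110 genes were searched for those at least 2-fold above the other caput barcodes, which gave 19. Matrix genes among them were EPYC (epiphycan, 12.8 CPM in corpus against 104 CPM in caput, 0.12-fold, 0.070 to 0.21), COL12A1 (0.26), FMOD (fibromodulin, 0.33) and LUM (66.0 against 179 CPM, 0.37-fold, 0.28 to 0.48). Signalling genes were SFRP4, a secreted Wnt antagonist (32.0 against 174 CPM, 0.18-fold, 0.13 to 0.26), the activin and inhibin chains INHBA (0.23) and INHBB (0.15), the endothelin receptor EDNRB (75.3 against 312 CPM, 0.24-fold), the natriuretic peptide receptor NPR1 (0.30) and DLK1, a Notch-related surface protein (0.28). C1QTNF3 (0.25), SERPINA3 (0.22), FGL2 (0.33), HPGD, which breaks down prostaglandins (0.29), PHEX (0.33), PCP4 (0.30) and LMO3 (0.35) were also among them. Some genes of this set were not confined to fibroblast barcodes. FGL2 stood at 555 CPM in fibroblast and 623 CPM in macrophage barcodes of caput, and at 183 and 646 CPM in those of corpus. FMOD stood at 131 CPM in caput fibroblast and 91.3 CPM in caput luminal barcodes, and PCP4 at 112 and 61.0 CPM. SFRP4, in contrast, stood at 4.58 CPM in caput luminal and 2.30 CPM in caput macrophage barcodes. Among 132 corpus fibroblast barcodes with at least 843 UMIs, the lowest caput depth, the genes of this set had few UMIs. EDNRB had 6 (ratio 0.14, 0.052 to 0.32), EPYC 7 (0.50, 0.20 to 1.08) and DLK1 6 (0.43, 0.15 to 0.96). COL12A1 had 12 (0.35, 0.18 to 0.63), FMOD 8 (0.45, 0.19 to 0.93) and LUM 11 (0.46, 0.22 to 0.84). SFRP4 (0.010 to 0.31), C1QTNF3 (0.013 to 0.39) and PCP4 (0.016 to 0.49) had 2 UMIs each, SERPINA3 (0.0028 to 0.66) and NPR1 (0.0020 to 0.47) had 1, and INHBB had 0. At that depth the intervals of EPYC, COL12A1, FMOD, LUM, INHBA, HPGD, LMO3, DLK1 and SERPINA3 no longer lay beyond 2-fold. Those of EDNRB, SFRP4, C1QTNF3, PCP4, NPR1, INHBB, PHEX and FGL2 still did.

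**Figure D5:**
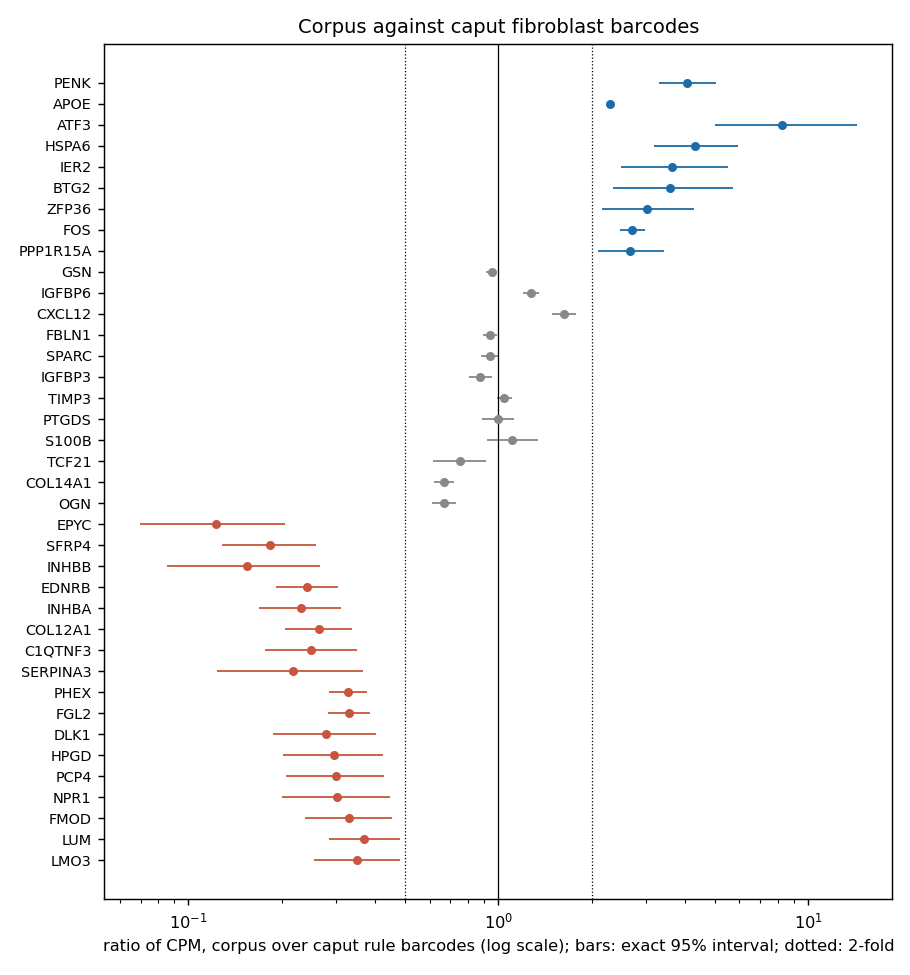
Ratio of CPM between corpus and caput fibroblast barcodes (horizontal axis, logarithmic, exact 95% intervals as bars, dotted lines at 2-fold) for genes higher in corpus (blue), genes between the dotted lines (grey) and genes higher in caput and above the rest of the caput library (red). PENK lies at 4.06 and ATF3 at 8.21, GSN at 0.95, and EPYC at 0.12; each side is 1 library.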

How the data were processed

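Per the file headers, the deposited matrices hold UMI counts written by PISA 0.12, whole numbers that are not normalized. Cell Ranger 2.1.1 appears in the submitters' processing notes with no role stated. The sources used here give no aligner, genome build or use of strand. Gene symbols come from the deposited feature names. Of 16301 corpus features named by a locus identifier, 734 were matched to a symbol in RefSeq.

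No barcode was filtered out and no doublet caller was run. UMIs were summed per group and scaled to CPM (1e+06 per group). Shares have Clopper-Pearson, levels Poisson and ratios conditional binomial intervals, at 95%. A gene was called when the whole interval exceeded 2-fold and its higher side held 50 UMIs or more; list medians use log2 ratios with 0.5 UMI added. For shares compared across depths, barcodes were thinned to 300 UMIs, which left out 24 fibroblast barcodes. With 1 library per region no p-value was computed. The interval rule was tested on simulated Poisson counts, which hold no spread between barcodes.

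The members and gene lists were chosen with earlier results of these data known. Named genes were the 5 genes of the rule and PENK, the 20 higher and 8 lower genes with intervals farthest from 1, up to 4 per list with the most UMIs, 12 in each direction between corpus and caput, 8 in each direction per split, and the 5 nearest to PENK. Other genes named in the text, mostly list members and genes near 1 in a comparison, were chosen after their values were seen. Some items are not reported here. Scripts ran under Python 3.11.15, with scipy 1.17.1 for intervals, pandas 2.3.3 and numpy 2.4.6 for tables and matplotlib 3.10.9 for figures. The alternatives, on the rule, depth, other-cell barcodes, fold, UMI minimum and scaling, are given in the closing section.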

Additional observations from a re-analysis of the deposited data

Results flagged for a closer look

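In the testis library, which the comparisons above do not use, 19 of 8610 barcodes (0.221%) met the same five-gene rule. They held DCN at 12180 CPM, APOD at 12571 CPM and APOE at 9465 CPM, with 1 UMI of PENK. Testis has no control sample for this value, and no background for the rule in testis was computed.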

How the results depend on the processing

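Ratios were recomputed for the genes with intervals farthest from 1 against the other corpus barcodes and against caput, for PENK, for the genes of caput fibroblast barcodes above their own library, and for SPARC, PI15 and IGFBP3 in the collagen split. None of these changed direction; ratios of other genes and of the other splits were not recomputed. Ratios to the other corpus barcodes left their interval in 106 cases and stayed within it in 146, those of corpus to caput left it in 44 and stayed in 396, and those of the collagen split stayed in all 27. The number of fibroblast barcodes, 3061, became 3284 at a 1% threshold, 2501 at 4%, 814 with at least 500 UMIs, 2847 without APOD in the rule, 2108 without DCN and 2895 with at least 1% ribosomal protein UMIs. The 858 genes higher than in the other corpus barcodes became 351 with at least 500 UMIs, 442 with the ribosomal minimum and 316 at 4-fold, and the 266 lower genes became 150 and 54 with the first and last of these. Against caput, the 16 genes higher in corpus became 2 at 4-fold and 29 with a minimum of 10 UMIs. The 110 higher in caput became 62 at a 4% threshold, 67 without DCN, 52 at 4-fold, 227 with 10 UMIs and 65 at the lowest caput depth, an alternative chosen after seeing the data, as was leaving out the 29 barcodes with CD74 and LYZ (3032 barcodes). In the collagen split, the 2 higher genes became 1 with at least 500 UMIs, 0 at 4-fold and 9 with 10 UMIs. The 2 lower genes became 1 at 1% and 4% thresholds, with at least 500 UMIs, without DCN and with the ribosomal minimum, and 0 at 4-fold. The 0 genes higher with PENK became 1 with 10 UMIs. The ratio of corpus to caput lay between 3.58 and 4.50 for PENK and between 2.16 and 2.44 for APOE over all alternatives, while that of ATF3 was 5.20 at a 1% and 24.2 at a 4% threshold. Without DCN in the rule the ratios to the other corpus barcodes were 7.91 for APOE, 7.53 for GSN and 6.61 for PENK, and at a 4% threshold 13.5, 13.9 and 11.3, since barcodes that left the rule joined the other side. No paired analysis was possible because each region has 1 library. Intervals cover counting error only, and at a median of 402 UMIs per barcode, genes with few UMIs in a split could not be called.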
